A study of Mus musculus with 24 samples.

Results

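The genes described here belong to the isthmic organizer, the signalling centre at the boundary between midbrain and hindbrain. They are 3 FGF ligands (*Fgf8*, *Fgf17*, *Fgf18*), 2 Sprouty genes (*Spry1*, *Spry2*), 2 Engrailed genes (*En1*, *En2*), 2 Pax genes (*Pax5*, *Pax8*) and *Gbx2*, 10 of the 54446 gene identifiers in the count tables. They were chosen by name, as known signals, feedback targets and transcription factors of this boundary, with no threshold on a measured value but with earlier results of these data known. RNA was sequenced from the secondary prosencephalon (SP) and from the combined diencephalon, midbrain and hindbrain (DMH) of mouse embryos at E14.5. Controls were *Tfap2b*+/+ and mutants *Tfap2b*-/- littermates from crosses of heterozygotes, with 3 embryos of each sex and genotype and 1 library per region, 24 libraries in all. The mutant allele carries a neomycin cassette in an exon of *Tfap2b*, the gene of the transcription factor AP-2 beta, and is present in every cell of the embryo, so no effect can be assigned to the brain region sampled. Each library is 1 embryo of its group, and the tests measure the spread between embryos.

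The isthmic organizer secretes FGF8 and related ligands, which pattern the midbrain in front of it and the cerebellum behind it. Cells that receive FGF signals raise Sprouty proteins, intracellular inhibitors that feed back on the same pathway. Engrailed and Pax2/5/8 transcription factors are expressed across the boundary and help to maintain its signals, and the boundary itself forms where *Otx2* of the midbrain meets *Gbx2* of the hindbrain. Several of these genes are also used elsewhere, *Fgf8* and *Fgf17* at the rostral midline of the telencephalon, *Gbx2* in the thalamus, and *Pax8* in neurons of the hindbrain.

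The libraries held 24.7 to 66.8 M fragments assigned to genes, and a count of 3, taken as the floor of detection, equals 0.0449 to 0.121 CPM (counts per M fragments on genes, scaled over the 24 libraries). PCR copies are not independent molecules, so floors and counting intervals cover counting error only. *Tfap2b* itself lay at 281 to 435 CPM in the 6 control DMH libraries and at 50.4 to 56.6 CPM in the 6 mutant ones, so the DMH libraries matched their genotype labels. In SP it lay at 2.75 to 4.72 CPM in all 12 libraries and is no check of the labels there. The DMH pieces fell into separate sets by caudal *Hox* genes, which mark the caudal hindbrain and spinal cord. Their summed level was 0.105 to 0.405 CPM in 4 Hox-poor pieces, from female control 1, female mutants 1 and 2 and male mutant 2, and 241 to 451 CPM in the 8 others. Female mutant 3 was left out of the main fits, as the study did. Its DMH library held 585 CPM of skeletal muscle markers, against 3.28 to 4.83 CPM in the other 11 DMH libraries, and 1783 CPM of cartilage markers against 65.2 to 88.9 CPM. In 2 of 12 libraries labelled female, both of female control 2, Y-linked transcripts exceeded *Xist*, and results without this embryo are given where they differ.

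**Figure D1:**
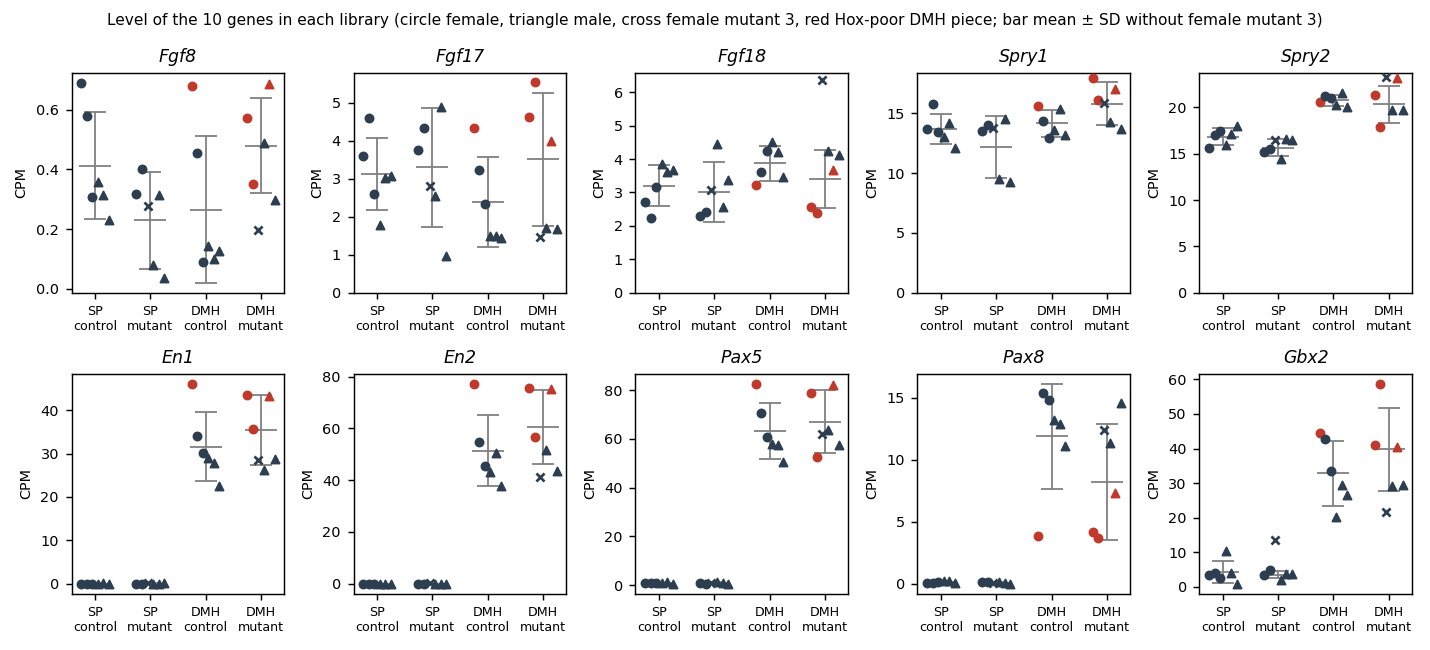
Level of each gene (CPM, linear axis) in every library, by region and genotype. Circles are females, triangles males, the cross is female mutant 3, red marks Hox-poor DMH pieces, and bars give the mean ± SD without female mutant 3. *En1*, *En2*, *Pax5* and *Pax8* lie near 0 throughout SP, and the red points of *Fgf17*, *En1* and *En2* are the highest in DMH while those of *Pax8* are the lowest.

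Per kilobase of exon, the only scale on which levels of different genes are compared here, *Gbx2* (15.1 ± 4.32 CPM per kb, SD, n = 6), *En2* (14.53 ± 3.91), *En1* (12.0 ± 3.05) and *Spry2* (9.94 ± 0.290) were the most abundant members in control DMH. The ranges of each neighbouring pair in that order overlapped down to *Spry2*. *Pax5* (7.15 ± 1.29), *Spry1* (4.88 ± 0.386) and *Fgf18* (3.26 ± 0.436) followed, each without overlap with its neighbours. *Pax8* (1.96 ± 0.695) and *Fgf17* (1.41 ± 0.704) overlapped, and *Fgf8* was the lowest at 0.197 ± 0.182 CPM per kb. In control SP the order began with *Spry2* (8.07 ± 0.437), *Spry1* (4.72 ± 0.428) and *Fgf18* (2.70 ± 0.522), and *En1* stood last. The Sprouty genes varied least between control DMH libraries, with a coefficient of variation of 2.92% for *Spry2* and 7.90% for *Spry1*, and *Fgf8* most, with 92.4%. The value of *Fgf8* includes the counting error of 3 to 18 counts per library.

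**Figure D2:**
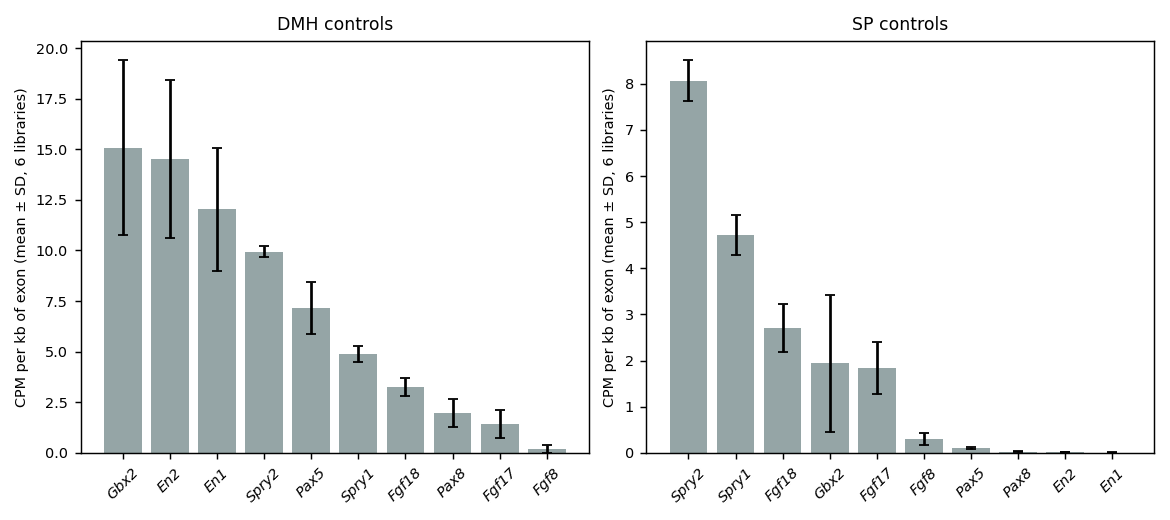
Mean level per kilobase of exon (CPM per kb, bars from 0, error bars SD, n = 6 libraries) in control DMH (left) and control SP (right), each in descending order and on its own axis. *Gbx2*, *En2* and *En1* lead in DMH, and *Spry2*, *Spry1* and *Fgf18* lead in SP.

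The comparison of DMH with SP asked in which region each gene is transcribed. In controls, 5 of the 10 genes were higher in DMH, *En1*, *En2*, *Pax5*, *Pax8* and *Gbx2*, and 1, *Fgf8*, was lower, called at a false discovery rate (FDR) below 0.2 together with a log2 fold change beyond 0.5 in either direction (edgeR quasi-likelihood test). Of the 17196 genes tested, 35.9% passed the same thresholds, 21.2% higher and 14.7% lower in DMH. The members' median log2 fold change was 1.61, against -0.00293 over all genes tested. In mutants 6 of 10 were called, all higher in DMH, with 36.2% of 17148 genes called, 20.3% higher and 15.9% lower, and a member median of 2.21. A lower level in bulk tissue can mean fewer cells of a type or less RNA per cell, and these cannot be told apart.

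*En1* (ENSMUSG00000058665.8, chr1:120602418-120607992, plus strand of GRCm38) and *En2* (ENSMUSG00000039095.8, chr5:28165694-28172166, plus strand) encode the Engrailed homeodomain repressors. *En1* had 46.0, 34.0 and 30.2 CPM in DMH of female controls 1 to 3, 29.0, 27.8 and 22.4 CPM in male controls, 43.6, 35.5 and 28.5 CPM in female mutants and 26.2, 43.2 and 28.7 CPM in male mutants. In SP it had no count in 9 of 12 libraries and at most 0.105 CPM. Over the 6 controls, DMH held 6073 counts of *En1* and SP 3, all in a single library, a depth-scaled ratio of 2071 with an exact 95% counting interval of 708 to 10040. Over the 5 mutants the counts were 6052 and 1. *En2* had 77.1, 54.7 and 45.5 CPM in DMH of female controls, 43.1, 50.4 and 37.9 CPM in male controls, 75.6, 56.6 and 41.1 CPM in female mutants and 51.7, 75.2 and 43.3 CPM in male mutants. SP of the 6 controls held 10 counts against 9900 in DMH, a ratio of 1013 (550 to 2113), and the log2 fold change was 9.90 (SE 0.228, adjusted p = 1.84e-12). SP of the 5 mutants held 4 counts against 10577 in DMH, a ratio of 2429 (948 to 8915). For both genes every DMH library stood above every SP library.

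*Pax5* (ENSMUSG00000014030.15, chr4:44524757-44710487, minus strand) and *Pax8* (ENSMUSG00000026976.15, chr2:24420560-24475599, minus strand) encode paired-domain factors of the same subfamily as *Pax2*. *Pax5* had 82.5, 70.7 and 60.9 CPM in DMH of female controls, 58.1, 57.3 and 50.5 CPM in male controls, 79.0, 52.8 and 62.0 CPM in female mutants and 63.5, 82.2 and 57.7 CPM in male mutants. It was detected in all 12 SP libraries, at 0.635 to 1.51 CPM, and was higher in DMH by 6.09 (SE 0.121, adjusted p = 1.29e-13) on the log2 scale in controls and by 6.06 (SE 0.225, adjusted p = 8.38e-09) in mutants. *Pax8* had 3.85, 15.4 and 14.8 CPM in DMH of female controls, 13.2, 12.9 and 11.1 CPM in male controls, 4.18, 3.65 and 12.4 CPM in female mutants and 11.3, 7.29 and 14.53 CPM in male mutants. The 4 values under 8 CPM are those of the Hox-poor pieces, and SP had at most 0.210 CPM. The log2 fold change of *Pax8* between DMH and SP was 6.49 (SE 0.438, adjusted p = 1.08e-07) in controls and 6.27 (SE 0.457, adjusted p = 9.1e-07) in mutants. *Gbx2* (ENSMUSG00000034486.8, chr1:89927956-89931179, minus strand), a homeobox gene of the rostral hindbrain, had 44.4, 42.6 and 33.6 CPM in DMH of female controls, 20.2, 29.6 and 26.5 CPM in male controls, 40.9, 58.6 and 21.6 CPM in female mutants and 29.2, 40.4 and 29.6 CPM in male mutants. In SP it had 3.38, 3.89 and 2.61 CPM in female controls, 10.4, 4.13 and 0.915 CPM in male controls, 3.38, 4.83 and 13.5 CPM in female mutants and 2.10, 3.78 and 3.69 CPM in male mutants. Its DMH and SP libraries did not overlap, with a log2 fold change of 2.93 (SE 0.472, adjusted p = 0.000326) in controls and 3.41 (SE 0.189, adjusted p = 1.28e-07) in mutants. The control value ran from 2.77 to 3.58 over the replicates left out. The 2 highest SP values were those of male control 1 and female mutant 3. In these libraries the summed level of 7 midbrain markers was 10.8 and 15.1 CPM, against 1.30 to 6.02 CPM in the other 10 SP libraries. That of 5 thalamus and pretectum markers was 439 and 441 CPM, within the 383 to 468 CPM of the others. The latter sum was 401 to 499 CPM in the 8 Hox-rich DMH pieces and 576 to 661 CPM in the 4 Hox-poor ones. It overlapped between SP and Hox-rich DMH, so it is no measure of thalamic tissue in SP. A single gene of the thalamus and pretectum list, *Lhx9*, named after its values were seen, was highest in the same 2 SP libraries, at 57.8 and 65.1 CPM against 34.1 to 51.2 CPM in the other 10. The part of such tissue in the SP level of *Gbx2* was not tested.

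Because the mutated factor binds DNA at a palindromic motif, the sequences before the annotated starts of the members were searched for it. RefSeq promoter entries (GRCm38.p6) were found for 7 of the 10 genes, and the 250 bases before the start were read for AP-2 (GCCNNNGGC, the same on both strands), homeobox (TAATTA), ETS (CCGGAAG or CTTCCGG) and paired box (CGTGAC or GTCACG) letters, each counted on its own. The AP-2 letters occurred in 2 of the 7 windows, *Pax5* and *Spry2*, and in 13.7% of all 32851 windows of that length. Windows are shown for 3 genes that were higher in DMH and for *Spry2*, which has the AP-2 letters at 2 places, 5′ to 3′ on the gene's own strand with the AP-2 letters in capitals.
*Pax5*, chr4:44710695-44710944, minus strand: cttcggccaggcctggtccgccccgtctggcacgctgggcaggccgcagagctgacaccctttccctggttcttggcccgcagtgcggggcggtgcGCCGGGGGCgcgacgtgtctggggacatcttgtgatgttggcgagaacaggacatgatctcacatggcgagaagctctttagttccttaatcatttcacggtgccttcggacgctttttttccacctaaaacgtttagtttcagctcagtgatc
*Pax8*, chr2:24475600-24475849, minus strand: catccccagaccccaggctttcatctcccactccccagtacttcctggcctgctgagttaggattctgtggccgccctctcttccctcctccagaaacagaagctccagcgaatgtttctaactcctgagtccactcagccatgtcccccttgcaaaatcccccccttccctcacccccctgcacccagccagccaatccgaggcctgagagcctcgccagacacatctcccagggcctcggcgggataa
*Gbx2*, chr1:89931177-89931426, minus strand: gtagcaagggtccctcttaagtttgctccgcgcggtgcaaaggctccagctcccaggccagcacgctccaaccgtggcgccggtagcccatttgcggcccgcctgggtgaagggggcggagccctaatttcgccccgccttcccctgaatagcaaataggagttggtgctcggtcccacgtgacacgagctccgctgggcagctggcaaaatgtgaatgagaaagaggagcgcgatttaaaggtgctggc
*Spry2*, chr14:105896820-105897069, minus strand: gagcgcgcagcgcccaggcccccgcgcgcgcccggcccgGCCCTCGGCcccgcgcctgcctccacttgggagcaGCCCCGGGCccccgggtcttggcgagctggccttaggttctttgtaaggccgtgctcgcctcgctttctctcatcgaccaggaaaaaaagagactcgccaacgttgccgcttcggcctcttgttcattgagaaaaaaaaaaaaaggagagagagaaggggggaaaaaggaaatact
Starts are those of RefSeq, and that of *Pax5* lies upstream of the start of the GENCODE gene given above. In *Pax5* the match begins 154 bases before the RefSeq start, and in *Spry2* the matches begin 211 and 176 bases before it. No member window held the homeobox letters, found in 4.84% of all windows, and 1 held the ETS letters (*En1*, 6.91% of all) and 1 the paired box letters (*Gbx2*, 6.93%). A match describes letters only, and neither a match nor its absence shows whether a factor binds.

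The FGF ligands were not restricted to DMH. *Fgf8* (ENSMUSG00000025219.13, chr19:45736798-45742915, minus strand), the principal ligand of the organizer, rested on 1 to 32 counts per library. In DMH it had 0.680, 0.454 and 0.0894 CPM in female controls, 0.142, 0.0988 and 0.127 CPM in male controls, 0.573, 0.351 and 0.197 CPM in female mutants and 0.487, 0.686 and 0.297 CPM in male mutants. In SP it had 0.689, 0.580 and 0.307 CPM in female controls, 0.357, 0.315 and 0.229 CPM in male controls, 0.316, 0.402 and 0.279 CPM in female mutants and 0.0793, 0.313 and 0.0349 CPM in male mutants. The regions overlapped in both genotypes. In controls *Fgf8* was lower in DMH, with a log2 fold change of -0.72 (SE 0.389, 95% interval -1.55 to 0.11, adjusted p = 0.115), and in mutants it was higher, with 1.00 (SE 0.444, interval 0.03 to 1.98, adjusted p = 0.0832). The mutant value rests in part on the 2 lowest SP levels, those of male mutants 1 and 3. These hold 2 and 1 counts, under the floor of 3. The mutant value ran from 0.79 to 1.36 over the replicates left out. In the SP libraries of male mutants 1 and 3 summed telencephalon markers had 2742 and 1932 CPM (others 1530 to 1993), choroid plexus markers 21.01 and 7.18 CPM (others 35.4 to 75.2) and meninges markers 458 and 139 CPM (others 453 to 683). The SP library of male mutant 1 also had the highest unmapped (9.98%) and multimapping (7.85%) shares of all libraries. The part of tissue content or of read quality in the difference was not tested. The call in controls did not hold without male control 1 (log2 fold change -0.62, adjusted p = 0.222) or without male control 2 (-0.61, adjusted p = 0.239), nor did either call hold at an FDR under 0.05.

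*Fgf17* (ENSMUSG00000022101.6, chr14:70636203-70642268, minus strand), a ligand of the *Fgf8* subfamily, had 4.35, 3.24 and 2.33 CPM in DMH of female controls, 1.49, 1.48 and 1.44 CPM in male controls, 4.63, 5.54 and 1.46 CPM in female mutants and 1.69, 3.99 and 1.68 CPM in male mutants. Its SP levels ran from 1.78 to 4.61 CPM in controls (median 3.04) and from 0.976 to 4.90 CPM in the 5 mutants, so the regions overlapped. The log2 fold change of DMH over SP was -0.47 (SE 0.206, adjusted p = 0.0587) in controls, just under the fold threshold. It was -0.64 (adjusted p = 0.014), and called, without female control 1, the control with the Hox-poor piece, and -0.53 (adjusted p = 0.0252) without female control 3. In mutants it was -0.04 (SE 0.369, interval -0.85 to 0.77). *Fgf18* (ENSMUSG00000057967.12, chr11:33117430-33147400, minus strand), the third member of that subfamily, had 2.25 to 3.84 CPM in control SP and 3.21 to 4.51 CPM in control DMH, with a log2 fold change of 0.26 (SE 0.113, adjusted p = 0.0502) that did not reach the fold threshold. In mutants it had 2.31 to 4.44 CPM in SP and 2.39 to 4.25 CPM in DMH, and its log2 fold change ran from 0.06 to 0.23 over the replicates left out.

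The Sprouty genes differed between regions by less than the fold threshold. *Spry1* (ENSMUSG00000037211.12, chr3:37639947-37644598, plus strand) had 12.9 to 15.6 CPM in control DMH and 12.1 to 15.8 CPM in control SP, a log2 fold change of 0.04 (SE 0.071, interval -0.11 to 0.19). In mutants it was 0.34 (SE 0.125, interval 0.06 to 0.61, adjusted p = 0.0432), with 3 of 5 DMH libraries above all SP ones. Its 2 lowest SP levels, 9.52 and 9.23 CPM, were again those of male mutants 1 and 3, and the other 10 SP libraries had at least 12.1 CPM. The difference was 0.32 to 0.42 over the replicates left out. *Spry2* (ENSMUSG00000022114.5, chr14:105891947-105896819, minus strand) had 20 to 21.6 CPM in control DMH and 15.6 to 17.97 CPM in control SP, without overlap. Its log2 fold change of 0.29 (SE 0.0477, adjusted p = 6.9e-05) in controls and 0.33 (SE 0.0843, adjusted p = 0.00666) in mutants stayed under the fold threshold. In all, the DMH and SP libraries of 6 of the 10 members did not overlap in controls, against 44.5% of 14376 genes with a mean of at least 1 CPM. In mutants this held for 6 members, against 40.1% of 14313 genes.

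**Figure D3:**
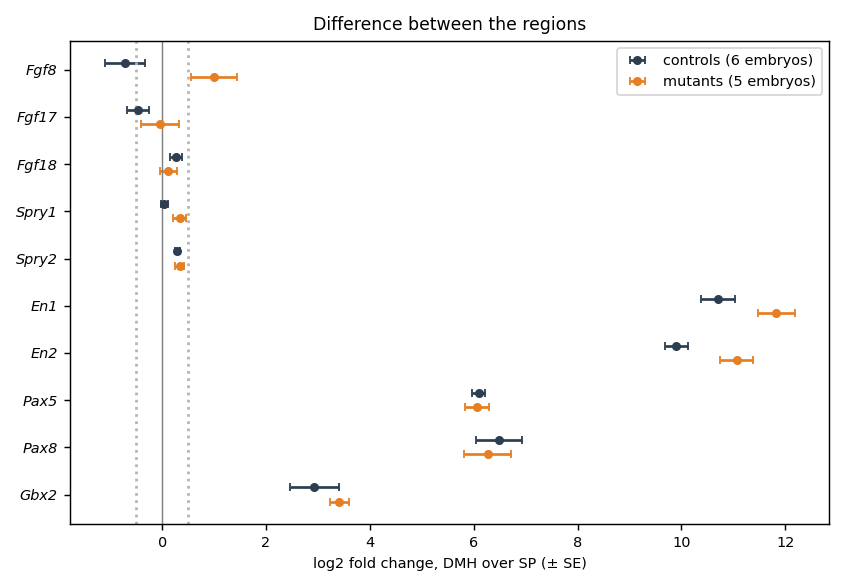
Log2 fold change of DMH over SP (± SE) for each gene in controls (6 embryos) and mutants (5 embryos), with dotted lines at the fold thresholds of -0.5 and 0.5. *En1*, *En2*, *Pax5*, *Pax8* and *Gbx2* lie far to the right in both genotypes, *Fgf17*, *Fgf18* and the Sprouty genes lie between the dotted lines, and *Fgf8* lies beyond them on opposite sides, at -0.72 in controls and 1.00 in mutants. The SP levels of *Fgf8* in male mutants 1 and 3 were under the floor of 3 counts. The fitted value of *En1* depends on a prior count, since SP held 3 counts in controls and 1 in mutants.

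A list of 20 further genes of the isthmus and of FGF signalling was compared in the same way. In controls 7 were higher in DMH and 6 lower, with a median log2 fold change of 0.15. The 3 largest positive differences were those of *Pax2*, 7.83 (SE 0.733, adjusted p = 5.99e-06), *Wnt1*, the ligand secreted on the midbrain side of the boundary, and *Lmx1b*, a LIM homeobox gene of the isthmus and hindbrain, 6.23 (SE 0.291, adjusted p = 8.1e-09). *Wnt1* had 397 counts in DMH and 3 in SP of the 6 controls, a ratio of 135 (46.0 to 659). *Otx2*, which marks the midbrain side and parts of the forebrain, was higher in DMH by 2.07 (SE 0.14, adjusted p = 1.03e-07). The 3 largest negative differences were those of *Sp8*, a zinc-finger gene, -1.51 (SE 0.129, adjusted p = 2.33e-07), and of the receptors *Fgfr3*, -0.94 (SE 0.0909, adjusted p = 8.42e-07), and *Fgfr2*, -0.81 (SE 0.0531, adjusted p = 4.23e-09). In mutants 8 were higher and 6 lower.

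The comparison of mutants with controls asked whether the loss of *Tfap2b* changed these genes. In DMH of both sexes (6 controls, 5 mutants, sex as a covariate), 0 of the 10 genes were called, with 0.0523% of 17223 genes called, 3 members and 2590 of all genes at an unadjusted p under 0.05 (edgeR), and 0 members called by DESeq2. All 10 members overlapped between the genotypes, as did all but 0.138% of 14456 genes, and the median log2 fold change of the members was 0.18, against -0.00254 over all genes. The largest differences were those of *Fgf8*, 1.06 (SE 0.458, interval 0.07 to 2.05, adjusted p = 0.327), *Pax8*, -0.72 (SE 0.406, interval -1.63 to 0.20, adjusted p = 0.377), and *Fgf17*, 0.67 (SE 0.231, interval 0.16 to 1.17, adjusted p = 0.327). *Gbx2* differed by 0.34 (SE 0.134, interval 0.04 to 0.63, adjusted p = 0.327). The intervals of *Spry1* (-0.01 to 0.32), *Spry2* (-0.17 to 0.08), *En1* (-0.13 to 0.55), *En2* (-0.12 to 0.66), *Pax5* (-0.20 to 0.41) and *Fgf18* (-0.53 to 0.03) all included 0. Without male mutant 1, *Fgf17* was called (log2 fold change 0.77, adjusted p = 0.169), and without male mutant 2, which gave a Hox-poor piece, its difference was 0.44. Over the replicates left out, the number of all genes called ran from 2 to 531, against 9 in the main fit.

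Within the sexes 0 of 10 members tested were called in female DMH (0.00596% of 16773 genes called, 3 members and 1492 of all genes at an unadjusted p under 0.05) and 0 of 9 in male DMH (0.0236% of 16962 genes, 0 members and 490 of all genes at that p), and DESeq2 called 0 in each. In female DMH the mutants lay above all controls for *Fgf17* and *Spry1* and below them for *Fgf18*, 3 of 10 members, with 26.1% of 14312 genes without overlap. The log2 fold changes there were 0.64 for *Fgf17* (SE 0.252, adjusted p = 0.551), -0.56 for *Fgf18* (SE 0.192, adjusted p = 0.551) and -1.54 for *Pax8* (SE 0.697, interval -3.43 to 0.36, adjusted p = 0.568), and those of the other 7 members ran from -0.11 to 0.32. Both female mutants in that fit gave Hox-poor pieces, as did female control 1. Without female control 1, when the remaining controls are Hox-rich and the mutants Hox-poor, genotype and *Hox* content cannot be told apart, and *Fgf17* (0.89, adjusted p = 0.0882), *Fgf18* (-0.65, adjusted p = 0.137) and *Pax8* (-1.94, adjusted p = 0.00102) were called, among 1117 genes in all against 1 with that library. In male DMH *Fgf8* was too low for the filter and was not tested by the fit. Without the filter it was called (log2 fold change 1.95, SE 0.47, adjusted p = 0.126). Its 3 male mutants had a mean of 0.490 CPM, all above the 3 male controls with a mean of 0.123 CPM. The controls rested on 4, 3 and 6 counts, at or near the floor of 3, and the highest mutant was the Hox-poor piece of male mutant 2. An exact two-sided permutation test gave p = 0.1, the smallest that 3 against 3 allows and the value any complete separation gives. *Fgf17* also did not overlap in males, with a log2 fold change of 0.68 (SE 0.346, adjusted p = 0.87) that became 0.17 without male mutant 2. The other 8 members tested ran from -0.19 to 0.35, and 9.77% of 14529 genes of at least 1 CPM did not overlap there.

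The 4 Hox-poor pieces were unevenly spread, 1 of 6 among controls and 3 of 5 among the mutants in the fit, so the genotype difference was refitted with the caudal *Hox* level. With its log2 CPM as a covariate, the difference of *Pax8* went from -0.72 to 0.03 (interval -0.43 to 0.49), that of *Fgf17* from 0.67 to 0.16 (-0.16 to 0.49), that of *En2* from 0.27 to -0.02 (-0.32 to 0.27) and that of *En1* from 0.21 to -0.06 (-0.30 to 0.17). *Fgf8* went to 0.63 (-0.40 to 1.67). Among Hox-rich pieces alone, 5 controls and 2 mutants, both mutants were male, so with sex in the fit the difference comes from males only. *Pax8* differed by 0.04 (-0.24 to 0.31) and *Fgf17* by 0.18 (-0.25 to 0.60). *Fgf8* differed by 1.70 (0.42 to 2.98, adjusted p = 1.00) there, and by 0.85 (-0.37 to 2.07) with female mutant 3 added. That addition turned *Fgf17* to -0.23 (-0.74 to 0.28), *Gbx2* from 0.19 to -0.16 (-0.71 to 0.40), and *En1* and *En2* to -0.04 and -0.03.

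**Figure D4:**
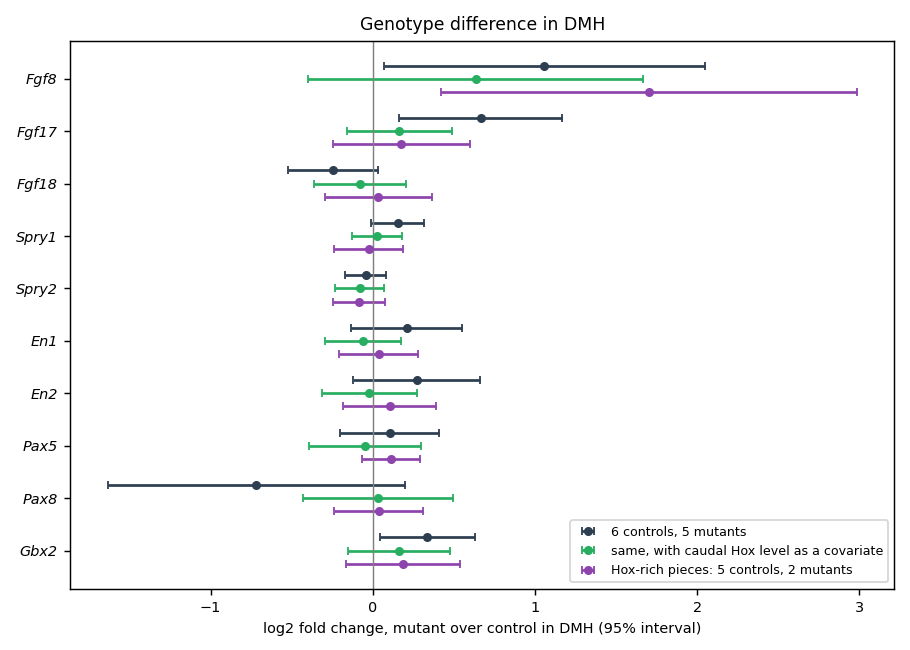
Log2 fold change of mutants over controls in DMH with 95% intervals, from all 11 libraries, from the same libraries refitted with a term for caudal *Hox* content, and from Hox-rich pieces alone (5 controls, 2 mutants, the mutants both male). *Pax8* moves from -0.72 to 0.03 and 0.04, *Fgf17* from 0.67 to 0.16 and 0.18, and the intervals of *Fgf8* remain the widest.

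In SP, 7 members passed the filter, and 0 were called in females (0.0181% of 16615 genes called), 0 in males (0% of 16562) and 0 in both sexes together (0% of 16973), with 0 members at an unadjusted p under 0.05 in each fit and 0 called by DESeq2. *Fgf8* had a log2 fold change of -0.68 (SE 0.39, interval -1.52 to 0.17, adjusted p = 0.901) in both sexes, and *Gbx2* of -0.21 (SE 0.447, interval -1.18 to 0.76), which became 0.36 without male control 1. The other 5 members tested ran from -0.14 to 0.16, and within the sexes the 7 members ran from -0.49 to 0.34 in females and from -0.92 to 0.26 in males. In females *Spry2* lay below all controls in both mutants, where 14.7% of 13992 genes did not overlap. *En2* was under the floor of 3 counts in those libraries. No member was without overlap in males (11.9% of 14084 genes) or in both sexes (0.413% of 14055 genes). The difference between the genotype effects of DMH and SP was tested as an interaction, with 0 of 10 members called (0.00565% of 17684 genes called, 2 members and 365 of all genes at an unadjusted p under 0.05, 0 members called by DESeq2). *Fgf8* had the largest interaction among them, 1.78 (SE 0.615, interval 0.50 to 3.05, unadjusted p = 0.00854 and adjusted p = 0.999 by edgeR), and the others ran from -0.22 to 1.18. The interaction of *Fgf8* uses the SP levels of male mutants 1 and 3, which were under the floor of 3 counts.

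Of the 20 genes of the isthmus and FGF list (18 tested in SP), 0 were called by edgeR in each of the 6 genotype comparisons and in the interaction. At an unadjusted p under 0.05 there were 2 in female DMH, 2 in male DMH, 4 in DMH of both sexes, 0 in each SP comparison and 1 in the interaction. Of all genes tested, 1492 of 16773, 490 of 16962 and 2590 of 17223 passed that p in these DMH comparisons, and 365 of 17684 in the interaction. DESeq2 called 1 of the list in each DMH comparison, among 77, 13 and 52 genes in all, and 0 in the others. In DMH of both sexes *Otx2* differed by 0.58 (SE 0.139, adjusted p = 0.327), *Wnt1* by 0.55 (SE 0.196, adjusted p = 0.327) and *Pax2* by -1.14 (SE 0.67, adjusted p = 0.392). With the caudal *Hox* covariate *Pax2* turned to 0.04. Among Hox-rich pieces with female mutant 3 included *Wnt1* turned to -0.12. Without male mutant 1, *Otx2* (0.60, adjusted p = 0.169) and *Wnt1* (0.63, adjusted p = 0.169) were called. All genes called there ran from 2 to 531 over the replicates left out, against 9 in the main fit. *Otx2* was also called by DESeq2 (0.58, adjusted p = 0.0101), among 52 genes in all, and without female control 1 (0.69, adjusted p = 0.0185). Leaving out that embryo leaves Hox-poor pieces among the mutants only, and *Otx2* differed by 0.52 with *Hox* content.

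The last comparison set the 4 Hox-poor against 7 Hox-rich DMH pieces, with sex and genotype as covariates. The *Hox* sum was read from the same libraries, and what differed in the dissection is not recorded in the labels. *Fgf17*, *En1* and *En2* were higher and *Pax8* lower in Hox-poor pieces, 4 of 10 members, where 6.89% of 17555 genes were called, 1.29% higher and 5.6% lower. The median log2 fold change of the members was 0.32, against -0.00464 over all genes. *Fgf17* had 3.99 to 5.54 CPM in Hox-poor and 1.44 to 3.24 CPM in Hox-rich pieces, a log2 fold change of 0.91 (SE 0.168, interval 0.55 to 1.27, adjusted p = 0.00944). *En1* had 35.5 to 46.0 CPM against 22.4 to 34.0 CPM (0.54, SE 0.115, adjusted p = 0.0194), and *En2* 56.6 to 77.1 CPM against 37.9 to 54.7 CPM (0.59, SE 0.143, adjusted p = 0.0374). *Pax8* had 3.65 to 7.29 CPM against 11.1 to 15.4 CPM (-1.45, SE 0.239, interval -1.99 to -0.92, adjusted p = 0.0105).

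These 4 genes and *Spry1* did not overlap between the Hox-poor and Hox-rich sets, 5 of 10 members, against 24.8% of 14456 genes. With female mutant 3 among the Hox-rich pieces the 4 genes still did not overlap and *Spry1* did, against 23.4% of 14535 genes. *Spry1* differed by 0.25 (SE 0.0815, adjusted p = 0.0643), under the fold threshold. *Gbx2* (0.32, adjusted p = 0.233), *Pax5* (0.31, adjusted p = 0.261), *Fgf8* (0.82, interval -0.33 to 1.97, adjusted p = 0.341), *Fgf18* (-0.31, adjusted p = 0.202) and *Spry2* (0.08, adjusted p = 0.534) were not called. In mutants alone, both females in the fit gave Hox-poor pieces, so with sex in the fit the contrast was male mutant 2 against male mutants 1 and 3. Its calls of the same 4 genes, with *Pax8* at -0.83 (adjusted p = 0.0455), rest on 1 Hox-poor library and are no independent check. In controls alone, with 1 Hox-poor piece against 5 Hox-rich ones, the spread of the single piece was likewise assumed to be that of the others. There *Pax8* was called (-1.95, adjusted p = 0.000839), and *Fgf17* (0.66, adjusted p = 0.377), *En1* (0.53, adjusted p = 0.277) and *En2* (0.64, adjusted p = 0.27) were not. The call of *En1* was lost without female control 1 (0.49, adjusted p = 0.121) and without male mutant 2 (0.43, adjusted p = 0.15). With female mutant 3 among the Hox-rich pieces 7 members were called, among 2335 genes in all against 1210 without it. The added ones were *Fgf8* (1.13, adjusted p = 0.0733), *Fgf18* (-0.63, adjusted p = 0.0181) and *Gbx2* (0.61, adjusted p = 0.0546). Without female control 2, *Fgf8* was called (1.28, adjusted p = 0.123), and without female control 1 its difference was 0.25.

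**Figure D5:**
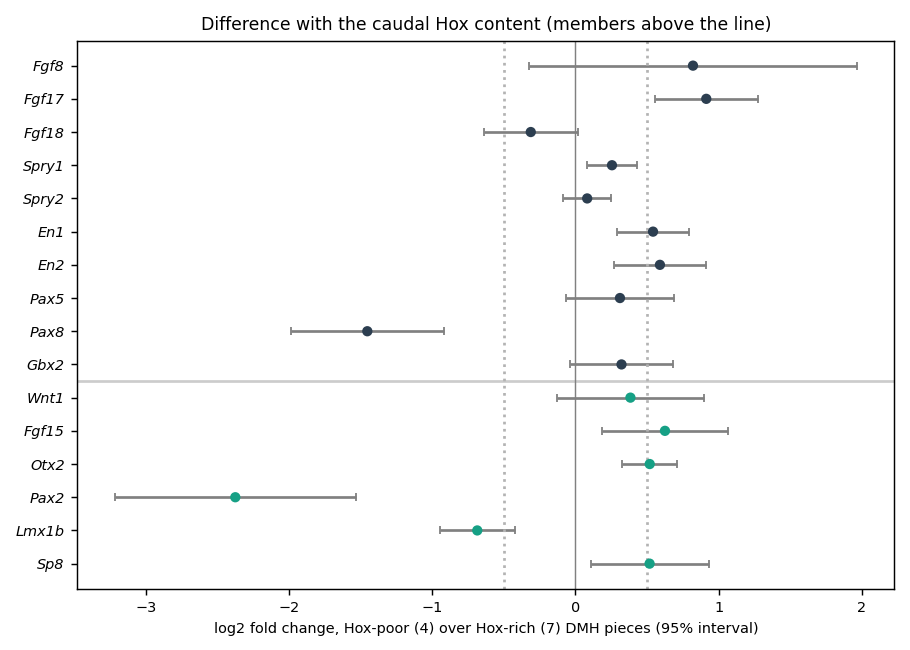
Log2 fold change of Hox-poor (n = 4) over Hox-rich (n = 7) DMH pieces with 95% intervals, for the 10 members above the grey line and 6 genes of the isthmus and FGF list below it, with dotted lines at the fold thresholds of -0.5 and 0.5. *Pax8* and *Pax2* lie far to the left, at -1.45 and -2.38, and *Fgf17*, *En1* and *En2* to the right of 0.5.

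In the isthmus and FGF list 3 of 20 genes were higher and 2 lower in Hox-poor pieces, with a median log2 fold change of 0.04. *Otx2* (0.52, SE 0.0882, adjusted p = 0.0081), *Fgf15* (0.62, SE 0.195, adjusted p = 0.076), an FGF ligand, and *Sp8* (0.52, SE 0.189, adjusted p = 0.101) were the higher ones. *Pax2* (-2.38, SE 0.361, adjusted p = 0.0137) and *Lmx1b* (-0.69, SE 0.121, adjusted p = 0.0103) were lower, and *Wnt1* was not called (0.38, adjusted p = 0.32). *Otx2* fell under the fold threshold without female control 1 (0.36) or female control 3 (0.46), *Fgf15* lost its call without male mutant 2 (adjusted p = 0.304), and *Sp8* lost its call without female control 3, male mutant 2, male control 3 or male mutant 3 (0.43 to 0.53). In mutants alone *Otx2* (0.38, adjusted p = 0.08) and *Lmx1b* (-0.47, adjusted p = 0.148) were not called, and in controls alone *Fgf15* (0.36, adjusted p = 0.711) and *Sp8* (0.40, adjusted p = 0.672) were not. *Pax2* had 4.65, 7.82, 4.04 and 13.9 CPM in the Hox-poor pieces and 35.7 to 47.5 CPM in the 8 Hox-rich ones, so the paralogs *Pax2* and *Pax8* were both low in the same 4 pieces, while *Pax5* had 82.5, 79.0, 52.8 and 82.2 CPM in them. Markers of some brain divisions moved with the *Hox* content. Summed over 7 genes, midbrain markers had 423 to 499 CPM in Hox-poor and 237 to 377 CPM in the 8 Hox-rich pieces, with 4 of 7 called higher. Summed over 5 genes, thalamus and pretectum markers had 576 to 661 CPM against 401 to 499 CPM, with 2 of 5 called higher. Markers of rostral hindbrain and cerebellum, 4 of 8 of them rostral *Hox* genes, had 12.4 to 26.6 CPM against 38.3 to 47.9 CPM, with 5 of the 7 tested called lower. Telencephalon markers, 8 genes, had 127 to 175 CPM against 93.0 to 190 CPM, with 2 called higher and a median log2 fold change of 0.49, and choroid plexus markers, 7 genes, had 18.5 to 68.0 CPM against 51.0 to 84.5 CPM, with 2 called lower and a median of -0.50. Meninges and mesenchyme markers, 8 genes, had 705 to 866 CPM in Hox-poor and 880 to 1167 CPM in the 7 Hox-rich pieces of the fit, without overlap and with 0 called. Of blood (7 tested), skeletal muscle (4 tested) and inner ear (1 tested) markers 0 were called, and of cartilage markers (3 tested) 1 was called lower. The part of tissue composition in the members' differences was not tested.

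The genes whose profile over the 24 libraries lay closest to each member were found among 14413 or 14414 genes with a mean of at least 1 CPM, by the root mean square difference of centred log2(CPM + 0.5). For *En1* these were *Pou4f2* (0.186), *Pax7* (0.246) and *Shisa3* (0.261), and for *En2* *Pax7* (0.290), *Pou4f2* (0.321) and *En1* (0.329). *Pax5* lay closest to *Shisa3* (0.303), *En1* (0.325) and *Dmbx1* (0.372), *Pax8* to *Skor1* (0.355), *Nkx6-1* (0.364) and *Lhx4* (0.396), and *Gbx2* to *Chrna4* (0.372), *D930028M14Rik* (0.380) and *Wnt3* (0.382). The own spread of these members on that scale was 1.61 to 3.31, most of it the step between SP and DMH. For the FGF and Sprouty genes the own spread was 0.193 to 0.569, closer to the distances. Their closest genes were *Ccnd1*, *Hvcn1* and *Mob3b* (*Fgf17*, 0.322 to 0.365), *B3galt2*, *Ccser2* and *Psd3* (*Fgf18*, 0.148 to 0.154), *Gng11*, *Tango6* and *Gm9917* (*Spry1*, 0.107 to 0.118), *Arl6ip5*, *Vapb* and *Degs1* (*Spry2*, 0.0747 to 0.0883), and *Gm5532*, *Swsap1* and *Tfrc* (*Fgf8*, 0.240 to 0.249). *Fgf8* lay at 0.0349 to 0.689 CPM, so the 0.5 CPM added before the logarithm flattens its profile. All these distances describe 24 libraries that share 12 embryos and carry no test.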

How the data were processed

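The authors made polyadenylated, strand-specific (dUTP) RNA-seq libraries and sequenced them as read pairs. Per the labels, reads were trimmed with cutadapt 2.4 and counted per gene with STAR 2.6.1d on mm10 (GRCm38.p6). The submitters' notes also name edgeR, without a version. The deposited values are whole counts per gene without normalization, and lines that name no gene (unmapped 5.46 to 9.98%, multimapping 4.96 to 7.85%, no feature 4.68 to 7.46% and ambiguous 1.10 to 1.61% of fragments) were left out. The column of the dUTP strand was used, which held 94.5 to 95.6% of stranded counts. The lowest chi-square per gene between libraries of a condition was 9.62, so none was a copy. Symbols and coordinates are from GENCODE vM21 (53229 of 54446 identifiers), and 5 of 116 listed symbols had no match and are not analysed here. Columns of the opposite strand served as a check only.

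Each comparison was one fit with edgeR 4.0.16 in R 4.3.3 (TMM, filterByExpr, robust quasi-likelihood, Benjamini-Hochberg over all genes tested), at the thresholds the study used, an FDR below 0.2 together with a log2 fold change beyond 0.5 in either direction. CPM used TMM over 24 libraries. Female mutant 3 was left out of the main fits, as in the study. SE is the absolute log2 fold change over the square root of F, and intervals are at 95%. The fits were tested on simulated data. Hox-poor pieces had a summed caudal *Hox* level under 100 CPM. SP and DMH libraries of the same number come from the same embryo by the study's design (12 embryos), with correlated deviations of 0.0809 to 0.546. Alternatives were RLE size factors, no filter, unstranded counts, DESeq2 1.42.0, an FDR of 0.05, the replicate number as a block, female mutant 3 included, 1 fit over 22 libraries, no sex term, caudal *Hox* terms and each replicate left out. All 10 members are given in every comparison, by value or within a range, and of the list genes *Wnt1*, *Otx2* and *Pax2*, those called in a genotype or *Hox* comparison (up to 6) and the 3 largest differences each way between regions. The members and lists were chosen with earlier results of these data known. Figures were drawn with matplotlib 3.10.9.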

Additional observations from a re-analysis of the deposited data

Results flagged for a closer look

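Of 37 groups of libraries in which a member had more than 3 counts in some library, 4 held a library whose gap to the nearest other exceeded Dixon's 95% limit, and chance alone flags about 1 in 20 such groups. *Pax8* had 3.85 CPM in DMH of female control 1, against 11.1 to 15.4 CPM in the other 5 controls. That piece is the only Hox-poor one among the controls. *Gbx2* had 10.4 CPM in SP of male control 1, against 0.915 to 4.13 CPM in the other controls, and 13.5 CPM in SP of female mutant 3, against 2.10 to 4.83 CPM in the other mutants. *En2* had 0.152 CPM in SP of female mutant 3, against 0 to 0.0473 CPM in the other mutants.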

How the results depend on the processing

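In 10 comparisons 160 alternative fits were made. The number of members called was 0 in every alternative of the 3 SP genotype comparisons and of the interaction. In female DMH it was 0, and 1 without the filter on low counts (*Fgf17*), and 0 to 3 when leaving out each replicate. In male DMH it was 0, and 1 without the filter (*Fgf8*), and in DMH of both sexes 0 to 1 over the replicates left out. Between regions it was 6 in each genotype, 5 in each at an FDR under 0.05, and 5 to 7 in controls over the replicates left out. With *Hox* content it was 4, 7 with female mutant 3 included, 1 in controls only, and 3 to 5 over the replicates left out. The replicate number as a block changed no call of a member. Controls and mutants of the same number share only a number (deviations correlated at -0.19 to 0.582). Of 1074 values of single genes under an alternative, 1006 kept their direction and call, 29 changed sign, 22 lost their call and 17 gained one. Changes of sign in DMH of both sexes were *Fgf18* to 0.0132 with female mutant 3 included, and with the *Hox* covariate *En1* to -0.061, *En2* to -0.0216, *Pax5* to -0.0485, *Pax8* to 0.0302 and *Pax2* to 0.0434. Without Hox-poor pieces *Fgf18* turned to 0.0341, *Spry1* to -0.0262 and *Pax8* to 0.0355, and with female mutant 3 added as well *Fgf17* to -0.23, *Fgf18* to 0.285, *En1* to -0.0399, *En2* to -0.0349, *Gbx2* to -0.156 and *Wnt1* to -0.118. *Spry2* ran from -0.0845 to 0.00446 over the replicates left out. In female DMH *Fgf18* turned to 0.0547 with female mutant 3 included and *Pax8* to 0.0229 with the *Hox* covariate. In male DMH *Pax8* turned to 0.0531 with it and to 0.0356 without the Hox-poor piece, which is male mutant 2 (-0.436 to 0.0356 over the replicates left out). In SP *Gbx2* turned to 0.262 with female mutant 3 included and ran from -0.434 to 0.359 over the replicates left out. Between regions in mutants *Fgf17* turned to 0.0405 with the block and ran from -0.144 to 0.137 over the replicates left out. With *Hox* content *Spry2* turned to -0.0144 with female mutant 3, to -0.0216 in controls only, and ran from -0.0171 to 0.123 over the replicates left out. The cause of these changes was not tested. Over all genes, 1 was called in female DMH, with 535 without the filter, 77 by DESeq2, 41 with the block, 4 with unstranded counts or 1 fit over 22 libraries, and up to 1117 without female control 1. In male DMH 4 became 2 to 17, in DMH of both sexes 9 became 1 to 531, in female SP 3 became 0 to 71, in male SP 0 became 0 to 8, in SP of both sexes 0 became 0 to 27, in the interaction 1 became 1 to 6, and with *Hox* content 1210 became 176 to 2335. Another scaling, strand setting or DESeq2 moved the median of all genes by at most 0.0236. At this depth *Fgf8*, with 1 to 32 counts per library, limits what can be told of it.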

Other observations

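Read pairs on the strand opposite to the members were counted as a check. In DMH they made up 0.921 to 2.26% of the stranded counts of *Spry1*, *Spry2*, *En1*, *En2*, *Pax5*, *Gbx2*, *Pax8*, *Fgf17* and *Fgf18* in controls. *Fgf8* had 5.77% there, from 3 counts. In SP of mutants *Spry2* had 5.78% (160 counts), with 1 library at 3.61 CPM against a median of 0.443 CPM over the 5.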
